A study of Mus musculus with 20 samples.

Results

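The comparison described here set livers of Cse-/- mice that ate a tryptophan-free diet with L-buthionine sulfoximine (no-Trp + BSO, n = 4) against livers of Cse+/- mice on the same tryptophan-free diet without the drug (no-Trp, n = 3). It took 7 of the 20 livers of the series, chosen by the genotype and diet in their labels. Messenger RNA purified on poly(A) was sequenced from the liver of each male mouse, so that each value is a biological replicate. The mice were at least 9 weeks old, of a mixed 129/C57BL/6 background, and tissue was taken on day 2 of the diet. A control diet came first, and both it and the test diets were calorie-restricted. The labels call the Cse+/- mice WT, but the study describes these controls as heterozygotes, so that all 7 mice carried at least 1 deleted Cse allele and all 7 lacked dietary tryptophan. The Cse deletion is in the whole body, and BSO was added to the diet per the submitters' treatment protocol. Genotype and BSO differ together between the groups and cannot be told apart in this comparison alone. Livers of 3 Cse-/- mice on the no-Trp diet without BSO were therefore used to lay out the steps of the comparison, and livers of Cse-/- (n = 4) and Cse+/- (n = 4) mice on a cysteine-free (no-Cys) diet were set beside it. Livers are named av09, av10, av11 and av12 (Cse-/- no-Trp + BSO), av17, av19 and av20 (Cse+/- no-Trp) and av14, av15 and av16 (Cse-/- no-Trp), after their columns in the count table, and values per liver are given in that order.

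Cse (gene symbol Cth) encodes cystathionine gamma-lyase, the last enzyme of the transsulfuration pathway, which makes cysteine from methionine and is most abundant in liver. Cysteine is built into glutathione by glutamate-cysteine ligase, a dimer of the catalytic subunit Gclc and the modifier subunit Gclm, and then by glutathione synthetase. BSO blocks glutamate-cysteine ligase. Loss of glutathione is known to engage the transcription factor NRF2, which acts through antioxidant response elements on genes of detoxification and glutathione use. Lack of an amino acid is known to engage the integrated stress response (ISR), in which the transcription factor ATF4 acts on genes of amino acid supply.

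The libraries held 14240348, 14054270, 30575178 and 57986121 counts on genes in the BSO livers and 14790326, 21281183 and 46024996 in the Cse+/- livers, each sorted by size. Of 46078 genes in the table, 14759 had enough counts to be tested. The tissue label fitted its markers: the summed level of 8 hepatocyte markers ranged from 63560 to 77760 CPM (counts per 1000000, scaled between libraries) in the BSO livers and from 76940 to 86690 CPM in the Cse+/- livers, and 0 of the 8 were called by edgeR or by DESeq2. Markers of other cells moved with the groups in places. Summed red cell markers stood at 68.4 to 166 CPM in the BSO livers and at 211 to 258 CPM in the Cse+/- livers, and 2 of 5 tested (Hba-a2, with 87.3% of its sequence shared with another gene, and Hbb-bt) were called lower. Summed neutrophil and monocyte markers stood at 2.50 to 5.29 against 5.73 to 8.10 CPM, with 1 of 4 tested (S100a8) called lower and Ly6g at 0. Adipocyte markers summed to 32.3 to 37.9 against 39.5 to 102 CPM, and the upper end came from liver av17, where Cfd stood at 26.3 CPM. Cfd was the 1 adipocyte marker called of 6 tested, and Lep was at 0. Of the other marker lists Ctsc (periportal), Pecam1 (endothelial), Dcn (stellate) and the proliferation genes Cdk1 and Ccna2 were called lower and 0 higher. Fewer cells of a type and less RNA per cell cannot be told apart in bulk tissue, and the part of these cells in the results was not tested. Of 8 markers of exocrine pancreas, Cpa1, Pnlip, Prss2 and Amy2a5 were at 0 in all 7 livers. The 8 summed to 10.4 to 13.5 CPM in the BSO livers and 13.4 to 21.3 CPM in the Cse+/- livers, mostly from Cela1, the 1 tested, which did not pass (-0.55, adjusted p = 0.156). Of 7 skeletal muscle markers, Acta1, Ckm, Myh1 and Pvalb were at 0, and the 7 summed to under 1 CPM in each liver.

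The targeted gene followed the labels. Cth (ENSMUSG00000028179, GRCm38 chr3:157894248-157925077, minus strand) stood at 8.36, 9.78, 10.0 and 10.7 CPM in the BSO livers, at 159.6, 155 and 88.4 CPM in the Cse+/- livers, and at 13.9, 14.4 and 10.4 CPM in the Cse-/- livers without BSO. The ranges of knockouts and heterozygotes did not overlap, and the fitted level was 13.9-fold lower with BSO than in heterozygotes (log2 fold change -3.79 ± 0.326, SE; adjusted p = 1.45e-06). The change lay in the genotype step (-3.38, adjusted p = 4.75e-05) and not in the BSO step, whose value of -0.41 did not pass (adjusted p = 0.641), and the steps differed (adjusted p = 0.042). Some neighbouring genes were called too. The non-coding gene 1810013D15Rik, which starts beside Cth on the opposite strand, rose by 1.11 on the log2 scale (adjusted p = 0.00207), and Gm43314, which lies inside Cth, fell by 2.85 (adjusted p = 2.45e-05). Reads of Gm43314 and of Cth, which overlap on the same strand, cannot be told apart, while 1810013D15Rik does not overlap Cth in the annotation. Of the genes tested, 4 of 11 (36.4%) were called within 2 Mb on either side of Cth and 6 of 34 (17.6%) within 10 Mb, beside 11.9% over all genes. Both counts include Cth itself and Gm43314. The 4 were these, 1810013D15Rik and the pseudogene Gm6520 (-0.83, adjusted p = 0.0493), so that the shares overstate the neighbours. These neighbours were chosen after their values were seen.

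Across the genome, 1761 genes (11.9% of 14759) differed between Cse-/- no-Trp + BSO and Cse+/- no-Trp livers at an edgeR quasi-likelihood adjusted p under 0.05. Of these, 964 genes (6.53%) were higher with BSO and 797 (5.4%) were lower. DESeq2 called 2090 genes, of which 1723 were among the 1761, all with the same sign. The count fell when livers were left out, to 1041 without av09, 1138 without av11, 1169 without av12, 1083 without av19 and 901 without av20. Levels in the 4 BSO livers did not overlap those in the 3 Cse+/- livers for 3729 genes, 25.3% of those tested, with 1947 (13.2%) higher and 1782 (12.1%) lower.

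The comparison is the sum of a genotype step (Cse-/- no-Trp minus Cse+/- no-Trp) and a BSO step (Cse-/- no-Trp + BSO minus Cse-/- no-Trp), which share the 3 intermediate livers. In the genotype step 389 genes were called (2.64%), with 206 higher (1.4%) and 183 lower (1.24%). In the BSO step 117 genes were called (0.793%), with 72 higher (0.488%) and 45 lower (0.305%). DESeq2 called 722 and 352 genes in these steps. Of the 1761 genes called on the sum of the steps, 294 were also called in the genotype step, 86 in the BSO step and 1384 in neither. Both steps pointed in the direction of the joint change for 1460, a count that the choice of genes by that sum favours. The difference between the steps was itself called for 53 genes (0.359%), with the BSO step more positive for 21 (0.142%) and less positive for 32 (0.217%), while DESeq2 called 170. The sections below follow the genes by role.

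Most of the NRF2-linked detoxification genes tested were called higher. All 8 oxidative stress response genes that the study names for liver were called higher, with a median log2 fold change of 2.05, against -0.01 over all genes tested. The study took these genes from those raised in Cse-/- livers on the no-Cys diet, which are not among the 7 livers, and they were listed here with results of the 7 known, so their direction is not independent evidence. Of 38 other NRF2-linked genes tested, 22 were called higher and 0 lower, with a median of 0.58. That is 100% and 57.9% called higher, beside 6.53% over all genes. With each liver left out in turn the 8 stayed called and the 22 ranged from 17 to 23. In the BSO step 7 of the 8 and 14 of the 38 were called higher, and in the genotype step 0 of the 8 and 1 of the 38 (Entpd5). Medians of the 8 genes were 1.68 in the BSO step and 0.30 in the genotype step. The test between the steps called 2 of the 8 and 2 of the 38, and Gsta1 had the larger value in the genotype step (1.74, adjusted p = 0.125, against 1.44, adjusted p = 0.131).

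**Figure D1:**
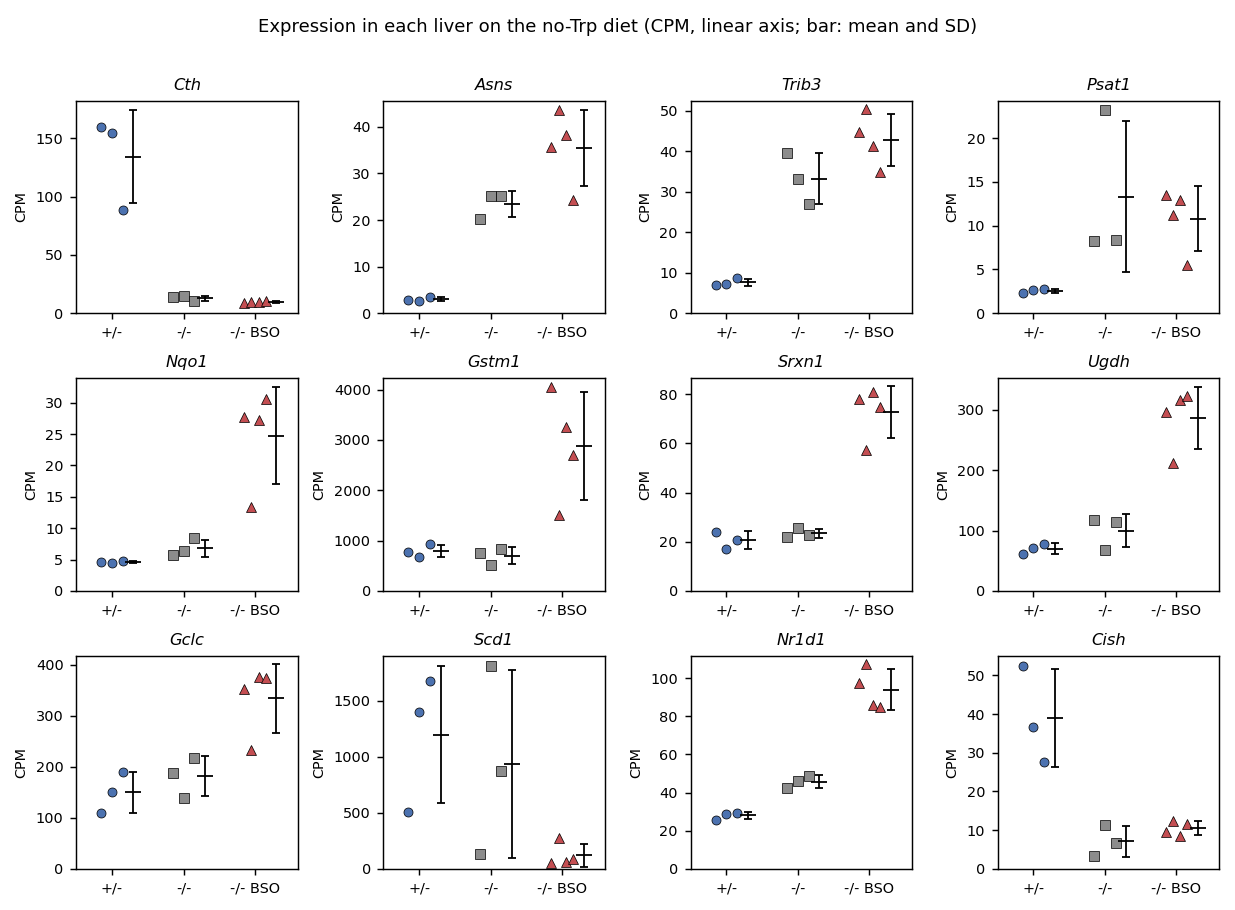
Levels of 12 genes in each liver on the no-Trp diet, in CPM on linear axes from 0: blue circles Cse+/-, grey squares Cse-/-, red triangles Cse-/- + BSO, with a bar at the mean and SD of each group. Nqo1, Gstm1, Srxn1, Ugdh and Gclc are highest in the BSO livers, Cth and Cish are low in knockouts with and without BSO, and Asns and Trib3 are high in both.

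Nqo1, the quinone reductase that is the usual reporter of NRF2, stood at 27.7, 13.3, 27.2 and 30.7 CPM in the BSO livers and at 4.62, 4.53 and 4.81 CPM in the Cse+/- livers. Every BSO liver was above every Cse+/- liver, and av10 was the lowest of the BSO livers. Nqo1 was 5.35-fold higher (2.42 ± 0.271, adjusted p = 2.45e-05). The 3 knockout livers without BSO stood at 5.74, 6.30 and 8.37 CPM, and the BSO step alone was 1.87 (adjusted p = 0.00154).

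Srxn1, which encodes sulfiredoxin and restores oxidised peroxiredoxins, stood at 77.9, 57.4, 80.8 and 74.6 CPM against 24.1, 16.9 and 20.9 CPM, a 3.55-fold rise (1.83 ± 0.149, adjusted p = 1.45e-06). Its levels without BSO, 21.9, 25.5 and 22.9 CPM, spread over those of the Cse+/- livers. The BSO step of Srxn1 was 1.64 (adjusted p = 9.59e-06), the genotype step 0.19, and the steps differed by 1.45 (adjusted p = 0.0344).

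Glutathione S-transferases, which join glutathione to reactive compounds, made up 6 of the 8 genes. Gstm1 stood at 4047, 1510.3, 3257 and 2690.5 CPM against 774, 682 and 927 CPM (1.86 ± 0.264, adjusted p = 0.00026), and its steps also differed (adjusted p = 0.0484). Gstm4 stood at 98.6, 49.4, 96.8 and 78.9 CPM against 21.7, 26.9 and 24.5 CPM (1.73 ± 0.223, adjusted p = 8.58e-05). Gsta2 stood at 69.8, 31.4, 73.1 and 99.8 CPM against 6.96, 9.79 and 10.5 CPM, 7.49-fold higher (2.90 ± 0.350, adjusted p = 5.08e-05). None of these ranges overlapped, and av10 was the lowest BSO liver for each. Gsta1 (3.18), Gstm3 (2.25) and Gstm2 (1.48) rose too, with adjusted p from 0.000263 to 0.00116. Reads of the transferases are uncertain where they share sequence: of the 61-base words in its transcripts Gsta1 shares 87.9% with another gene, Gsta2 43.5%, Gstm3 25.7%, Gstm1 15.2%, Gstm2 3.69% and Gstm4 0%.

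The enzymes of glutathione synthesis and recycling bear on the drug most directly. Gclc, the subunit that holds the active site, stood at 352, 233, 376 and 374 CPM in the BSO livers and at 110.0, 149.7 and 189.9 CPM in the Cse+/- livers, without overlap. It rose 2.23-fold (1.15 ± 0.191, adjusted p = 0.000899), and the BSO step passed on its own (0.88, adjusted p = 0.0315). Gclm, its modifier, stood at 242, 218, 276 and 281 CPM against 174, 179 and 205 CPM, a smaller rise (0.45 ± 0.114, adjusted p = 0.0148) that was lost without av12, av17 or av19 (adjusted p up to 0.0602). Gsr, the reductase that regenerates glutathione, stood at 107, 82.1, 113 and 113 CPM against 51.3, 57.8 and 58.5 CPM (0.90 ± 0.150, adjusted p = 0.000998). Gsr passed in the BSO step (0.90, adjusted p = 0.00507) with a value of 0.00 in the genotype step, but the difference between the steps did not pass (adjusted p = 0.189). Gss, glutathione synthetase, did not pass (0.25, adjusted p = 0.128), nor did Gpx1, a glutathione peroxidase (-0.29, adjusted p = 0.13). Both were chosen after their values were seen. Of 17 glutathione genes tested, 4 were called higher and 0 lower, with a median of -0.06. The fourth was Lap3, a leucine aminopeptidase (0.34, adjusted p = 0.0348), which was lost without av09, av10, av11, av12, av19 or av20 (adjusted p up to 0.19).

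Further NRF2-linked genes supply sugars and clear metabolites. Ugdh makes UDP-glucuronic acid for glucuronidation and stood at 297, 212, 317 and 323 CPM against 61, 71.6 and 78.0 CPM, 4.09-fold higher (2.03 ± 0.256, adjusted p = 8.16e-05). Pir, which encodes pirin, an iron-binding nuclear protein, stood at 40.1, 35.7, 43.2 and 44.1 CPM against 16.3, 13.8 and 16.9 CPM (1.38 ± 0.135, adjusted p = 5.36e-06). Neither gene's groups overlapped. In livers without BSO, Pir stood at 18.7, 13.6 and 17.7 CPM, and its BSO step exceeded its genotype step by 1.19 (adjusted p = 0.042).

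Cyp2a5, a cytochrome P450 of coumarin and nicotine oxidation, stood at 5079.9, 2348, 4548 and 4188 CPM against 1023, 1088 and 1162 CPM (1.89 ± 0.218, adjusted p = 3.25e-05), with 29.4% of its words shared with other genes. Entpd5, an endoplasmic reticulum nucleotidase, stood at 436, 348, 471 and 455 CPM against 203, 210.0 and 203 CPM (1.06 ± 0.116, adjusted p = 2.45e-05) and was called in each step, at 0.52 for BSO and 0.54 for genotype. Abcc2, which exports glutathione conjugates into bile, stood at 928, 669, 929.9 and 992 CPM against 479, 623 and 550.1 CPM (0.68 ± 0.126, adjusted p = 0.00215). Among members of the list chosen after their values were seen, the exporter Abcc4 (1.94), the aldehyde oxidase Aox1 (1.43), the epoxide hydrolase Ephx1 (1.32), the ferritin light chain Ftl1 (0.85, with 47.1% of its words shared) and the thioredoxin reductase Txnrd1 (0.48) were called higher. Nfe2l2 itself, which encodes NRF2, did not pass (0.12 ± 0.126, adjusted p = 0.585), and neither did Hmox1, heme oxygenase, also chosen after its values were seen, at 19.3 to 24.9 CPM against 17.4 to 30.8 CPM (-0.18, adjusted p = 0.538).

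Promoter letters of these genes were read from RefSeq windows on GRCm38.p6, taken as the 250 bases before the gene's start on its own strand. The core of the antioxidant response element, TGACNNNGC on either strand, occurred in 7 of the 26 called members that had a window (26.9%), against 11.5% of 27025 gene symbols with a window and 10.2% of 32851 windows. The 7 were Abcc2, Abcc4, Gclm, Htatip2, Pir, Txnrd1 and Ugdh. A match is a description of letters and no evidence of binding, and the other 19 members hold no such letters in this window only. The windows of Ugdh (chr5:65435843-65436092, minus strand), Gclm (chr3:122245307-122245556, plus strand) and Pir (chrX:164269181-164269430, plus strand) are shown because Ugdh and Pir were called in the BSO step and Gclm is a subunit of the enzyme that BSO blocks, with matches in capitals. Matches begin 132 and 94 bases before the start of Ugdh, 134 before that of Gclm and 214 before that of Pir.
Ugdh: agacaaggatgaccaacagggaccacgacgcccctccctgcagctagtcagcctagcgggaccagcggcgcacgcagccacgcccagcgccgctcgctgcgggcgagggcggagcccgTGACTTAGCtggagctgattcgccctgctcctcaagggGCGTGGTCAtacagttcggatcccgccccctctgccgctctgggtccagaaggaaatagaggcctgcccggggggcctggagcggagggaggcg
Gclm: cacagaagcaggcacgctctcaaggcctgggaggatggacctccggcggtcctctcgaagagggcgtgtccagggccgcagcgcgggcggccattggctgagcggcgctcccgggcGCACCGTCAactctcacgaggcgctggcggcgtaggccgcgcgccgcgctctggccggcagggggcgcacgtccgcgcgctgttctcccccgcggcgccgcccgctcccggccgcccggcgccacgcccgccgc
Pir: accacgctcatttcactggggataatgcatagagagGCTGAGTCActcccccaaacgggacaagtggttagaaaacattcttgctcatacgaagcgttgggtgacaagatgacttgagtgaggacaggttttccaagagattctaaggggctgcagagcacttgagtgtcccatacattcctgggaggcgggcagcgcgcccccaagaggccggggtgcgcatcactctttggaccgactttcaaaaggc

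The ISR genes moved less evenly. Of the 14 ISR genes that the study names from the same no-Cys livers, 5 were called higher (Asns, Trib3, Psat1, Mthfd2 and Atf5) and 0 lower, with a median of 0.75, beside 6.53% higher over all genes. The count higher fell to 3 without av09, av17 or av19, and 1 (Chac1) was called lower without av10. The count higher was 6 with DESeq2 and 7 when only the 2 groups compared were fitted. In the genotype step 3 were called higher (Asns, Psat1 and Trib3) with a median of 0.70, and in the BSO step 0 were called, where 2 had an unadjusted p under 0.05 and the median was 0.20. Over all genes these steps called 1.4% and 0.488% higher. Of 24 other ATF4-linked genes tested, 4 were called higher and 1 lower, with a median of 0.05.

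Asns, asparagine synthetase, showed the largest rise of the ISR genes. It stood at 35.8, 43.6, 38.3 and 24.3 CPM in the BSO livers, at 2.91, 2.67 and 3.55 CPM in the Cse+/- livers and at 20.2, 25.1 and 25.1 CPM in knockouts without BSO. Each knockout liver was above each Cse+/- liver, while BSO livers and knockouts without BSO overlapped. Asns was 11.7-fold higher (3.55 ± 0.565, adjusted p = 0.000671), of which the genotype step gave 2.96 (adjusted p = 0.0107) and the BSO step 0.59 (adjusted p = 0.645).

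The window before the Asns start (chr6:7693210-7693459, minus strand, RefSeq on GRCm38.p6) holds the letters TGATGNAA of the C/EBP-ATF response element, to which ATF4 is known to bind, 23 bases before the start. It is shown because Asns carries the largest ISR change, with this match in capitals. The window also holds core letters of the antioxidant response element, 172 bases before the start, left in lower case. The letters TGATGNAA occurred on either strand in 2 of 8 called ISR genes that had a window (Asns and Vldlr, 25%), against 3.91% of 27025 gene symbols.
Asns: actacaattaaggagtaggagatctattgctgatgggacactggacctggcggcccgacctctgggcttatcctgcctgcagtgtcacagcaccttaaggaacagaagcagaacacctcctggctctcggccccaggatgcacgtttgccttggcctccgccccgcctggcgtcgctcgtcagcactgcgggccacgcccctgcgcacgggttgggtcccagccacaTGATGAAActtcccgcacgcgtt

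Trib3, a pseudokinase that feeds back on ATF4, stood at 44.8, 50.4, 41.3 and 34.9 CPM against 6.96, 7.34 and 8.59 CPM, a 5.59-fold rise (2.48 ± 0.234, adjusted p = 4.23e-06). Its knockouts without BSO stood at 39.7, 33.1 and 27.1 CPM, and the genotype step (2.12) exceeded the BSO step (0.36) with an adjusted p of 0.0468. Psat1, of serine synthesis, stood at 13.6, 11.2, 13.0 and 5.54 CPM against 2.35, 2.63 and 2.76 CPM (2.05 ± 0.367, adjusted p = 0.0017). Neither gene overlapped between BSO and Cse+/- livers.

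Mthfd2, a mitochondrial folate enzyme, stood at 5.09, 2.48, 4.07 and 2.50 CPM against 0.853, 1.45 and 1.73 CPM (1.37 ± 0.400, adjusted p = 0.0307). The call was lost without av09, av11, av17, av19 or av20 (adjusted p up to 0.124). Atf5, a transcription factor under ATF4, stood at 749, 617, 670.4 and 568 CPM against 290.0, 284 and 452 CPM (0.93 ± 0.250, adjusted p = 0.0207) and was lost without av09, av17 or av19 (adjusted p up to 0.0908). Groups of both genes did not overlap.

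The secreted ISR factors were not called. Fgf21, a liver hormone of protein restriction, stood at 5.79, 15.3, 5.19 and 2.59 CPM against 1.14, 1.56 and 2.62 CPM (1.96 ± 0.717, adjusted p = 0.0787), and its value was 1.31 without av10. Gdf15, a hormone that reduces appetite, stood at 6.28, 9.45, 6.39 and 2.98 CPM against 2.13, 3.15 and 5.28 CPM (0.79 ± 0.576, adjusted p = 0.392). In each, liver av12 overlapped the Cse+/- range. Ddit3 (CHOP) stood at 12.2 to 13.6 CPM against 7.39 to 9.44 CPM without overlap and gave an adjusted p of 0.0747. Slc7a1 (0.71), Slc1a4 (0.42), Pycr1 (0.30), Atf6 (0.08) and Slc3a2 (-0.17) gave adjusted p from 0.355 to 0.742. Chac1, which breaks down glutathione, pointed the other way at 5.81, 14.2, 4.49 and 2.37 CPM against 14.2, 13.0 and 10.7 CPM (-0.95 ± 0.455, adjusted p = 0.18). Without av10 Chac1 was called lower, at -1.58 (adjusted p = 0.0184).

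Among the other ATF4-linked genes, Vldlr, a lipoprotein receptor, stood at 7.90, 4.49, 7.02 and 15.8 CPM against 1.56, 2.42 and 3.69 CPM (1.78 ± 0.350, adjusted p = 0.00321). Sesn2, a sensor of leucine, rose by 0.99 (adjusted p = 0.00409), Shmt2, of mitochondrial serine use, by 0.51 (adjusted p = 0.00367), and Eif4ebp1, a repressor of translation, by 0.53 (adjusted p = 0.0147; lost without av09). Atf3 was the 1 gene lower, at 1.10, 0.871, 1.05 and 1.35 CPM against 2.13, 2.79 and 3.22 CPM (-1.30 ± 0.298, adjusted p = 0.00847). Atf4 messenger RNA did not pass (-0.12 ± 0.209, adjusted p = 0.757).

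Cytosolic aminoacyl-tRNA synthetases, which load amino acids on tRNA, were called higher for 9 of 20 (45%) and lower for 0, beside 6.53% higher over all genes. The median was 0.33, with 19 positive values. The count called ranged from 6 to 11 as livers were left out. Lars (leucine) stood at 35.8, 34.4, 33.7 and 32.2 CPM against 22.5, 20.2 and 21.3 CPM (0.68 ± 0.105, adjusted p = 0.000568). Gars (glycine) stood at 64.3, 65.8, 64.4 and 55.8 CPM against 43.5, 37.2 and 33.4 CPM (0.72 ± 0.121, adjusted p = 0.00104). The ranges stood apart, and Iars (0.79) and Mars (0.78) were called at an adjusted p of 0.00269 each. Each step called 1 synthetase higher (5%), Gars for genotype and Vars for BSO, beside 1.4% and 0.488% higher over all genes.

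**Figure D2:**
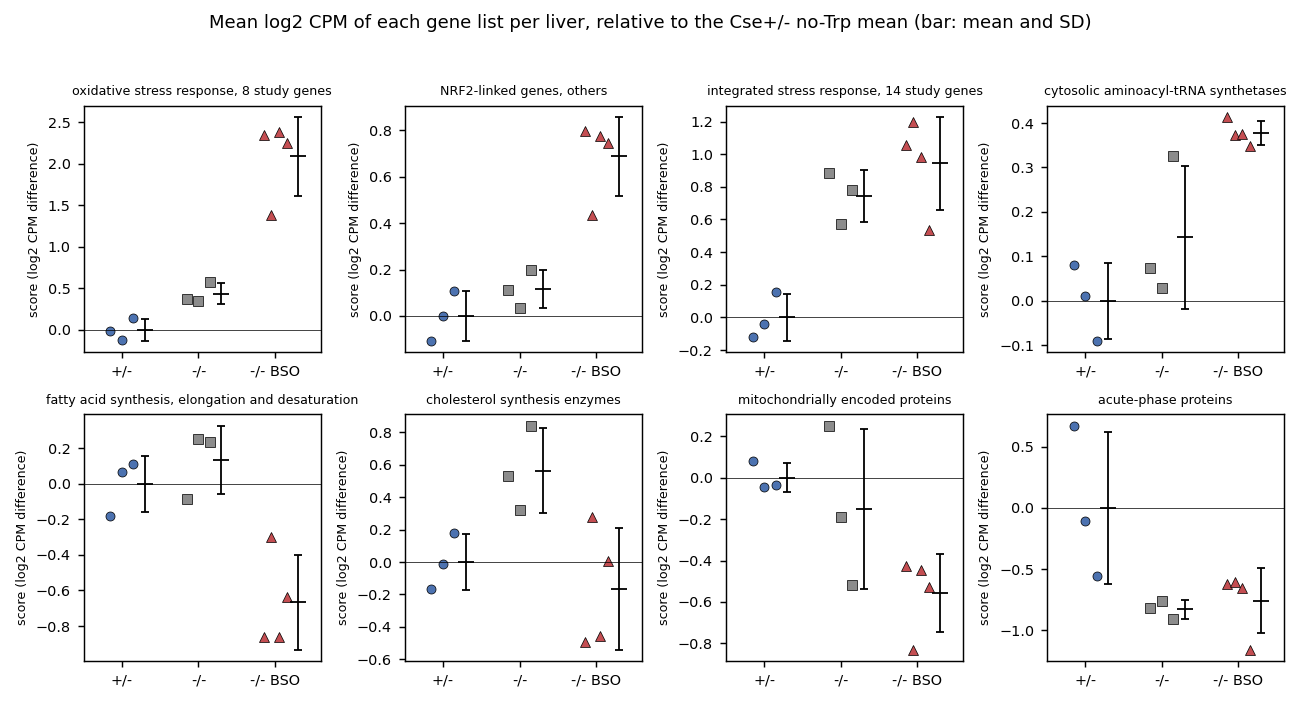
Score of 8 gene lists in each liver on the no-Trp diet, as the mean log2 CPM of the list relative to the Cse+/- no-Trp mean, with symbols and bars as in the plot of levels by liver. The oxidative stress score of the BSO livers spans 1.38 to 2.38, above 0.34 to 0.58 in knockouts without BSO, while the ISR scores of these groups overlap.

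Per-liver scores, the mean log2 level of a list relative to the Cse+/- mean, show the same layout. The oxidative stress score was 2.09 ± 0.475 (SD, n = 4) in BSO livers, 0.43 ± 0.127 (n = 3) in knockouts without BSO and 0 ± 0.134 (n = 3) in heterozygotes. The ISR score was 0.94 ± 0.285 in BSO livers, from 0.54 to 1.20, and 0.75 ± 0.159 in knockouts without BSO, from 0.57 to 0.89. The scores are given as a description.

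Of the cholesterol synthesis enzymes, Lss and Hsd17b7 were called in opposite directions in the steps. Of 20 cholesterol synthesis enzymes, 0 were called in the joint comparison with edgeR, 3 had an unadjusted p under 0.05, DESeq2 called 1 higher and 1 lower, and the median was -0.15. In the genotype step 4 were called higher (Mvk, Lss, Hsd17b7 and Dhcr7) with a median of 0.62. In the BSO step 3 were called lower (Acat2, Lss and Hsd17b7) with a median of -0.61 and 20 of 20 values negative. The difference between the steps was called for 4 (Acat2, Lss, Hsd17b7 and Dhcr7). Lss, lanosterol synthase, changed by 0.67 with genotype (adjusted p = 0.0095), by -0.54 with BSO (adjusted p = 0.033) and by 0.13 in all (adjusted p = 0.53). These enzymes were named after their values were seen, and the steps share the same 3 livers, so that a high value in those livers moves both steps.

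The stearoyl-CoA desaturases Scd1 and Scd2 were lower. Of 12 genes of fatty acid synthesis tested they were the 2 called lower, 0 were higher, and the median was -0.44. All 12 values were negative, 5 of them at an unadjusted p under 0.05. The count called lower was 1 without av09, av11, av17, av19 or av20, 5 without av10 and 4 with DESeq2. The BSO step called 3 of the 12 lower. Its values were negative for 12 of 12, 9 of them at an unadjusted p under 0.05, with a median of -0.69. The genotype step called 0, where 1 had an unadjusted p under 0.05, 9 values were positive and the median was 0.27. The difference between the steps was called for 1. Scd1, the main form in liver, stood at 50.8, 273, 60.3 and 90.9 CPM in BSO livers, at 508, 1404 and 1679.6 CPM in Cse+/- livers and at 132, 1809.7 and 872 CPM in knockouts without BSO. BSO and Cse+/- livers did not overlap, and Scd1 was 10.1-fold lower (-3.34 ± 0.663, adjusted p = 0.00346), with a BSO step of -2.98 (adjusted p = 0.0341). The joint value of Scd1 was -4.17 without av10 and ranged from -3.00 to -3.70 without 1 of the other livers. Scd2 was lower by a smaller size (-0.50, adjusted p = 0.0432), lost without av09, av11, av17, av19 or av20 (adjusted p up to 0.136). Acaca, acetyl-CoA carboxylase, did not pass (-0.44 ± 0.153, adjusted p = 0.066).

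Of 20 regulators of lipid supply, 4 were called higher and 3 lower, with a median of 0.04. Thrsp, a nuclear protein of lipogenesis, stood at 40.5, 125, 37.3 and 63.2 CPM against 96.8, 342 and 403 CPM (-2.08 ± 0.444, adjusted p = 0.00544), and liver av10 lay within the Cse+/- range. Abcg8 stood at 297, 284, 291 and 260.4 CPM against 136, 164 and 129 CPM (0.98 ± 0.155, adjusted p = 0.000646). Its partner in sterol export, Abcg5, rose by 0.70 (adjusted p = 0.00314). The others called were Vldlr, Nr1h2 (0.27), Apoc1 (-0.55, lost without any of av09, av10, av11, av12, av19 and av20, adjusted p up to 0.18) and Pnpla3 (-1.49). Srebf1 (-0.35, adjusted p = 0.448) and Srebf2 (0.07, adjusted p = 0.815), the regulators of fatty acid and sterol synthesis, did not pass.

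Of 32 genes of PPAR-alpha and fatty acid oxidation 4 were called lower and 0 higher, with a median of -0.17. Acaa2, the mitochondrial thiolase, stood at 899.5, 789, 826 and 853 CPM against 1141, 1268 and 1076 CPM (-0.46 ± 0.102, adjusted p = 0.00636). Acot1 (-1.70), Pdk4 (-1.63) and Plin5 (-0.90) were called as well, each lost on leaving out any of 5 or more of the 7 livers, and without av09, av11, av19 or av20 the list kept 1. Of 11 mitochondrially encoded genes 5 were called lower (mt-Nd1, mt-Nd2, mt-Nd3, mt-Nd4 and mt-Nd6), with a median of -0.48 and 11 of 11 values negative. These 5 encode subunits of complex I, but so does mt-Nd5, which changed least (1.07-fold lower). Of the genes not called, mt-Atp6 (2.05-fold lower) and mt-Co3 (1.77-fold lower) changed more than mt-Nd1 (1.52-fold lower). mt-Nd1 stood at 3892, 3679, 4270.0 and 4333 CPM against 6625, 5593 and 6186 CPM (-0.60 ± 0.126, adjusted p = 0.00473). The count was 3 without av17 or av20. Of 75 nuclear-encoded respiratory subunits, 2 were called lower (Cox7c, -0.43, and Ndufs4, -0.30), with a median of -0.17. Of these values 62 were negative, 20 were lower and 0 higher at an unadjusted p under 0.05, and 35 were lower without overlap between the groups, beside 12.1% of all genes.

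Clock genes were called in both directions. Of 18 clock genes 4 were called higher and 3 lower (38.9% called), beside 11.9% called over all genes. Nr1d1, the repressor REV-ERB alpha, stood at 97.8, 108, 85.8 and 84.9 CPM against 25.7, 29.0 and 29.2 CPM, 3.36-fold higher (1.75 ± 0.201, adjusted p = 3.25e-05), and at 42.5, 45.8 and 48.9 CPM in knockouts without BSO. The 3 groups of Nr1d1 did not overlap, and its BSO step was called (1.04, adjusted p = 0.0136). Dbp, a PAR bZIP factor, stood at 149, 132, 141 and 133 CPM against 66.6, 67.2 and 79.0 CPM (0.97 ± 0.135, adjusted p = 0.000218). Bhlhe41 rose by 1.92 (adjusted p = 0.000646), and Nfil3, which opposes Dbp, fell by 1.38 (adjusted p = 0.000899). The sources used here do not give the hour at which each liver was taken, and its part in these values was not tested.

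**Figure D3:**
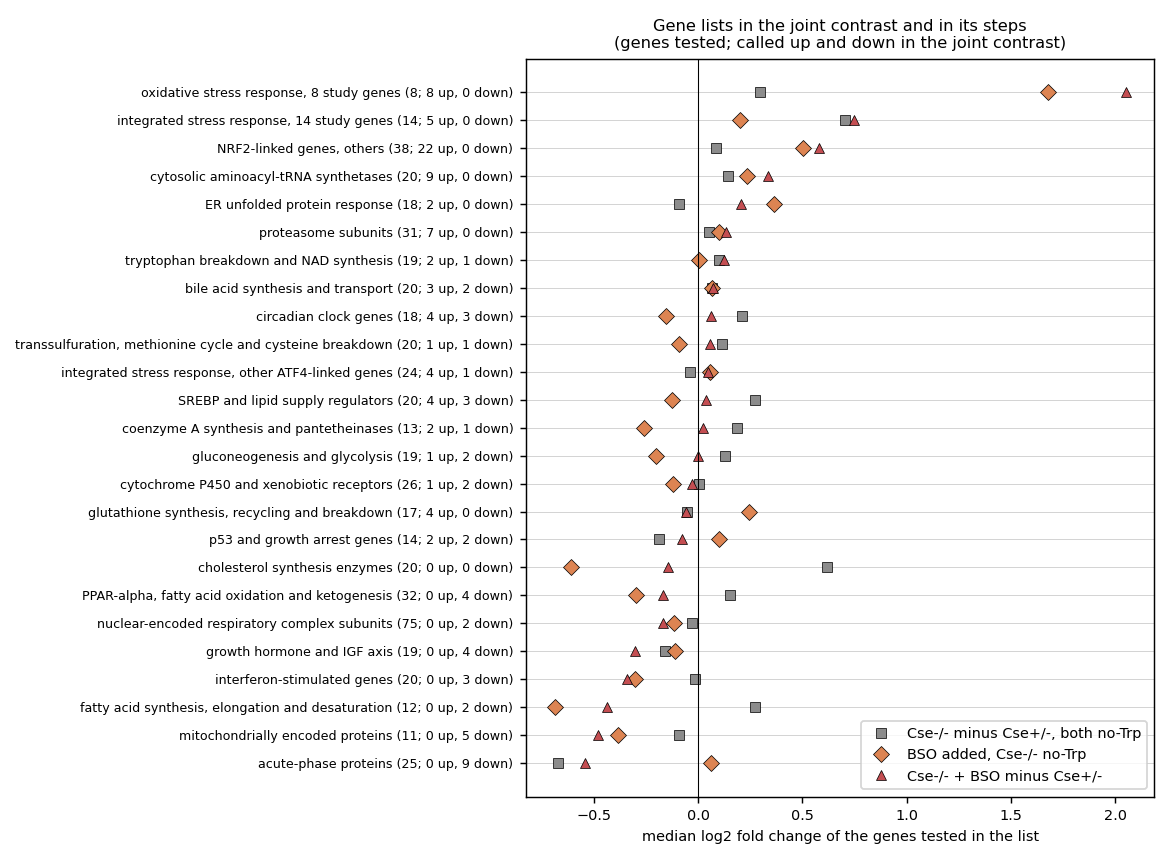
Median log2 fold change of the tested genes of 25 lists in the joint comparison (red triangles), its genotype step (grey squares) and its BSO step (orange diamonds), with the genes tested and called in brackets. The oxidative stress genes have medians of 2.05, 0.30 and 1.68 in these comparisons, and the cholesterol synthesis enzymes of -0.15, 0.62 and -0.61.

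Of 19 genes of the growth hormone axis 4 were called lower, 0 higher and 15 did not pass, with a median of -0.30, and in the genotype step 3 were called lower. Among those that did not pass, the repressors Cux2 and Bcl6 gave 2.05 (adjusted p = 0.308) and 1.42 (adjusted p = 0.0997), both chosen after their values were seen. Cish, an inhibitor of growth hormone signalling that the hormone itself induces, stood at 9.61, 12.3, 8.56 and 11.6 CPM against 52.5, 36.7 and 27.7 CPM (-1.89 ± 0.324, adjusted p = 0.00118), and at 3.37, 11.3 and 6.55 CPM in knockouts without BSO. Igf1 stood at 471, 579, 496 and 478 CPM against 787, 815 and 854 CPM (-0.69 ± 0.107, adjusted p = 0.000536). Neither gene overlapped between BSO and Cse+/- livers. Socs2 (-1.20) was lost without av09, av11, av12, av17, av19 or av20 (adjusted p up to 0.113), and Serpina3k (-0.68) without av17 (adjusted p = 0.057).

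Genes of the acute-phase response, in which hepatocytes secrete plasma proteins during inflammation, were called lower for 9 of 25 tested and higher for 0, with a median of -0.54. The list also holds genes whose products are not secreted, such as Stat3, Steap4, Socs3, Mt1 and Mt2. The median was -0.24 without av17 and -0.73 without av20. The count fell to 3 or 4 without av09, av10, av11, av12 or av17. The Cse+/- livers were far apart: Saa2 stood at 550.2, 113 and 23.1 CPM there, against 17.9, 22.2, 16.6 and 8.52 CPM in BSO livers (-3.82 ± 1.20, adjusted p = 0.0433), and was lost on leaving out any liver but av20 (adjusted p up to 0.262), with a value of -2.07 without av17. Hamp, the iron hormone hepcidin, stood at 252, 506, 218 and 567 CPM against 1408, 735 and 1516 CPM (-1.66 ± 0.417, adjusted p = 0.0142), lost without av09 or av20 (adjusted p up to 0.0669). Stat3 stood at 97.9, 94.7, 97.5 and 93.4 CPM against 229, 168 and 129 CPM (-0.87 ± 0.188, adjusted p = 0.00579). Steap4, a metalloreductase, was lower too (-1.47, adjusted p = 0.00481). Saa2 shares 24.4% of its 61-base words with other genes and Hamp 10%. Neutrophil markers were lower with the same groups, and their part was not tested.

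Proteasome subunits were called higher for 7 of 31 and lower for 0, with a median of 0.14, led by Psmd3 (0.51 ± 0.0856, adjusted p = 0.000956) and Psmd1 (0.61, adjusted p = 0.00178). Of 18 genes of the unfolded protein response of the endoplasmic reticulum, 2 were called higher, and the count was 5 without av17. The 2 were the chaperone Dnajb9 (0.83, adjusted p = 0.00701) and the kinase Eif2ak3 (0.81, adjusted p = 0.0061). The median of the 18 was 0.21, with 15 values positive. In the BSO step 18 of 18 values were positive, 10 of them at an unadjusted p under 0.05, and 0 were called. In the genotype step 13 were negative and 0 were called. Of 20 genes of transsulfuration and cysteine breakdown, Cth was lower and Ethe1, the persulfide dioxygenase of sulfide oxidation, was higher, at 46.6, 41.5, 39.1 and 50.7 CPM against 23.5, 24.5 and 26.3 CPM (0.85 ± 0.132, adjusted p = 0.000628). Of 13 genes of coenzyme A metabolism, Slc5a6 (0.59) and Ppcdc (0.56) were higher and Nudt19 (-0.33) lower, and the pantetheinase Vnn1 did not pass (0.14, adjusted p = 0.83). Of 20 interferon-stimulated genes 3 were called lower and 0 higher, with a median of -0.34. Among them were Rtp4 (-0.80, adjusted p = 0.048) and Ifi27 (-0.40, adjusted p = 0.0302), and 0 of the 20 were called without av09, av11, av12, av19 or av20 (adjusted p up to 0.15 for Rtp4 and Ifi27).

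Of 19 genes of tryptophan breakdown and NAD synthesis, Tdo2 (0.41) and Nadsyn1 (0.37) were higher, each lost on leaving out any of 6 of the 7 livers (adjusted p up to 0.165), and Nampt, which salvages nicotinamide, was lower at 97.9, 154, 116 and 117 CPM against 175, 185 and 183 CPM (-0.58 ± 0.130, adjusted p = 0.00747). Of 19 genes of glucose metabolism, Ldha was lower at 559.7, 578, 536 and 454 CPM against 1007, 862 and 812 CPM (-0.75 ± 0.133, adjusted p = 0.00162). G6pc was lower too (-1.93), lost without av09, av11, av12 or av19 (adjusted p up to 0.133), and Gckr, the glucokinase regulator, was higher (0.50, adjusted p = 0.00922). Of 20 genes of bile acid metabolism Abcc2, Klb (0.67) and Cyp8b1 were higher and Slco1a1 (-1.04) and Nr1h4 (-0.36), the bile acid receptor FXR, were lower. Cyp8b1 (1.85 ± 0.527, adjusted p = 0.0274) sets cholic acid synthesis, and its call was lost without av09, av11, av12, av19 or av20 (adjusted p up to 0.12), and its value was 2.58 without av17. Of 14 genes of p53 and growth arrest Bbc3 (PUMA) and Ccng1 (0.38) were higher and Gtse1 (-1.20) and Btg2 (-1.02) lower, with Bbc3 at 1.30 (adjusted p = 0.00289). Bbc3 passed in the genotype step (1.34, adjusted p = 0.0123), and the difference between its steps did not pass (adjusted p = 0.198). Of 26 genes of xenobiotic metabolism 1 was higher and 2 lower, all Cyp genes described below. Over all genes 11.9% were called. The shares of transsulfuration (10%), xenobiotic (11.5%), tryptophan and NAD (15.8%) and glucose genes (15.8%) lay near this, and that of nuclear respiratory subunits (2.67%) below it. So did, near it, unfolded protein response (11.1%), fatty acid oxidation (12.5%), interferon-stimulated (15%) and fatty acid synthesis genes (16.7%). The first of these was called higher only, beside 6.53% higher over all genes, and the others lower only, beside 5.4%. Each rests on few calls. Shares were larger for growth hormone (21.1%), proteasome (22.6%), coenzyme A (23.1%) and bile acid genes (25%). Those of p53 (28.6%), lipid regulator (35%), acute-phase (36%) and mitochondrially encoded genes (45.5%) were larger again.

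Some of the genes named by the size of their change follow. Sult2a7, a sulfotransferase, stood at 38.1, 63.3, 42.5 and 57.4 CPM against 2.35, 2.38 and 1.17 CPM, 25.2-fold higher (4.66 ± 0.587, adjusted p = 8.16e-05), and at 70.8, 91.1 and 22.5 CPM in knockouts without BSO. Its genotype step was 4.94 and its BSO step -0.29, and the steps differed (adjusted p = 0.0135). Cyp2b9, a P450 of female-predominant expression in mice, stood at 55.4, 55.3, 58.8 and 91.3 CPM against 2.42, 0.272 and 8.13 CPM (4.27 ± 1.21, adjusted p = 0.0273), and at 78.1, 306 and 29.3 CPM without BSO. It was lost without av12, av17 or av19 (adjusted p up to 0.0987), and its value was 6.11 without av20. Of its family Cyp2b10 was lower (-2.38, adjusted p = 0.0248), as was Cyp3a11 (-0.89, adjusted p = 0.0291), with neither call kept on leaving out av09, av11 or av20. Snhg11, a long non-coding RNA, stood at 51.6, 38.7, 54.7 and 53.5 CPM against 4.19, 6.73 and 8.78 CPM (2.89 ± 0.323, adjusted p = 2.45e-05).

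Serpina4-ps1, a serpin pseudogene, showed the largest decrease of the genes named by size, at 8.69, 26.7, 8.70 and 5.67 CPM against 374, 266 and 307 CPM (-4.70 ± 0.743, adjusted p = 0.000646) and a value of -5.38 without av10. Scara5, a ferritin receptor, stood at 4.10, 5.56, 3.65 and 0.512 CPM against 55.7, 36.4 and 15.6 CPM (-3.42 ± 0.571, adjusted p = 0.000962), and at 0.935 to 2.94 CPM without BSO. Fbf1, which encodes a protein of centriole appendages, stood at 15.3, 14.6, 13.9 and 10.6 CPM against 139, 139 and 75.5 CPM (-3.12 ± 0.477, adjusted p = 0.00053). The knockouts without BSO were split for Fbf1, at 19.7, 143 and 46.9 CPM, and its BSO step was -2.35 (adjusted p = 0.0193). Adh6-ps1 stood at 0.925, 2.41, 1.05 and 0.288 CPM against 8.46, 26.2 and 34.1 CPM (-4.49 ± 0.870, adjusted p = 0.00292). None of these 4 overlapped between BSO and Cse+/- livers, which the rule that named them required.

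The same genotypes were compared on the no-Cys diet in 8 other livers, which share no library with the 7. There 3515 genes were called (23.8%), with 1717 higher (11.6%) and 1798 lower (12.2%) in knockouts. Of the 1761 genes called with BSO, 862 were also called on the no-Cys diet, which is 48.9% of the former and 24.5% of the latter, and 838 of them had the same sign, 494 higher and 344 lower in both. A direct test of the difference between the comparisons called 361 genes (2.45%), with 210 (1.42%) more positive and 151 (1.02%) less positive with no-Trp + BSO. This count ranged from 117 to 925 as livers were left out, and DESeq2 gave 711. Of the 361, 264 were called on the no-Cys diet, and for 245 of these the change with no-Trp + BSO was the smaller in size. Of the 361, 134 were called with BSO, and for 107 of these the no-Cys change was the smaller, so that choosing genes by a call in 1 comparison favours a smaller change in the other.

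**Figure D4:**
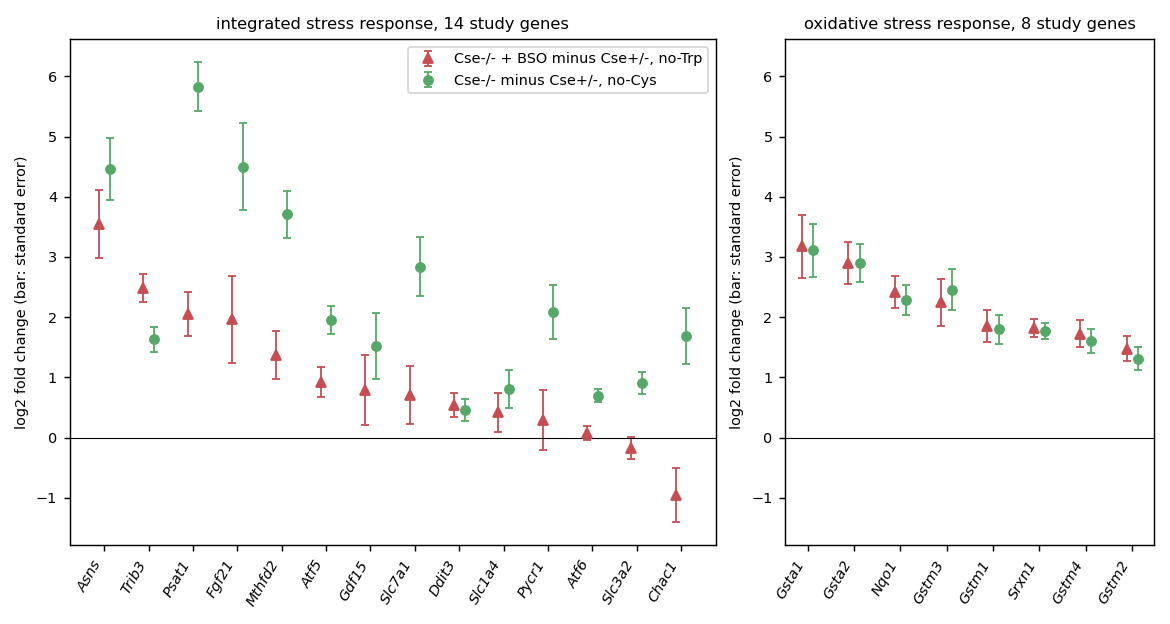
Log2 fold change with its standard error for the 14 ISR genes (left) and the 8 oxidative stress genes (right) in Cse-/- + BSO minus Cse+/- on no-Trp (red triangles) and in Cse-/- minus Cse+/- on no-Cys (green circles). For the oxidative stress genes the medians are 2.05 and 2.04, while for the ISR genes they are 0.75 and 1.82.

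For the oxidative stress genes the comparisons lay close. These genes too were named from the no-Cys livers. All 8 were called higher on each diet, the medians were 2.05 and 2.04, and the test of the difference called 0 of 8, with a median difference of 0.06. Nqo1 gave 2.42 and 2.29, with a difference of 0.13 ± 0.357 (adjusted p = 0.901), and Srxn1 gave 1.83 and 1.77. A p that misses the threshold does not show that these are equal. Levels were not alike: the oxidative stress score was 0.61 ± 0.213 (SD, n = 4) in heterozygotes on the no-Cys diet against 0 ± 0.134 (n = 3) on the no-Trp diet, and 2.73 ± 0.372 (n = 4) in knockouts on the no-Cys diet against 2.09 ± 0.475 (n = 4) with no-Trp + BSO. Gclc rose with BSO (1.15) and did not pass on the no-Cys diet (0.43, adjusted p = 0.078), but the difference itself did not pass (0.73, adjusted p = 0.134).

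For the ISR genes they lay further apart. The genes were named from the no-Cys livers, a choice that favours a larger change there, and nothing is read from their count. The no-Cys comparison called 11 of the 14 higher with a median of 1.82, and the difference was called for 5 (Psat1, Chac1, Mthfd2, Slc3a2 and Atf6), each less positive with no-Trp + BSO, with a median difference of -1.05. Psat1 changed by 2.05 with BSO and by 5.83 on the no-Cys diet (difference -3.78, adjusted p = 0.00257). Mthfd2 changed by 1.37 and 3.71 (difference -2.33, adjusted p = 0.0358). Asns changed by 3.55 and 4.46, and this difference did not pass (-0.92, adjusted p = 0.578), nor did that of Trib3 (0.85, adjusted p = 0.137). The heterozygotes were not alike here either. Their ISR score was -0.30 ± 0.151 (SD, n = 4) on the no-Cys diet and 0 ± 0.143 (n = 3) on the no-Trp diet. Knockouts were at 2.02 ± 0.613 (n = 4) on the no-Cys diet and 0.94 ± 0.285 (n = 4) with no-Trp + BSO. Among the synthetases the difference was called for 3 of 20 (Gars, Eprs and Tars), again less positive.

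The called differences of cholesterol enzymes and clock genes lay in the other direction. On the no-Cys diet 18 of 20 cholesterol enzymes were called lower with a median of -1.31, and the difference was called for 8, each more positive with no-Trp + BSO. The heterozygotes of these comparisons were not alike, since the cholesterol score of Cse+/- livers was 1.07 ± 0.118 (n = 4) on the no-Cys diet and 0 ± 0.172 (n = 3) on the no-Trp diet. The knockouts were at -0.23 ± 0.403 (n = 4) on the no-Cys diet and -0.17 ± 0.374 (n = 4) with no-Trp + BSO, so that the scores stood apart in the heterozygotes and overlapped in the knockouts. Of 18 clock genes the difference was called for 4 (Bhlhe41, Nr1d1, Dbp and Bhlhe40), each more positive with no-Trp + BSO, while 5 values were negative, down to -1.52 for Arntl (adjusted p = 0.223), and the median difference was 0.51. Bhlhe41 (difference 2.13), Nr1d1 (1.76) and Dbp (1.5) were more positive with no-Trp + BSO, with adjusted p of 0.0108, 0.00271 and 0.00124. Nr1d1 did not move with genotype on the no-Cys diet (-0.01, adjusted p = 0.979).

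**Figure D5:**
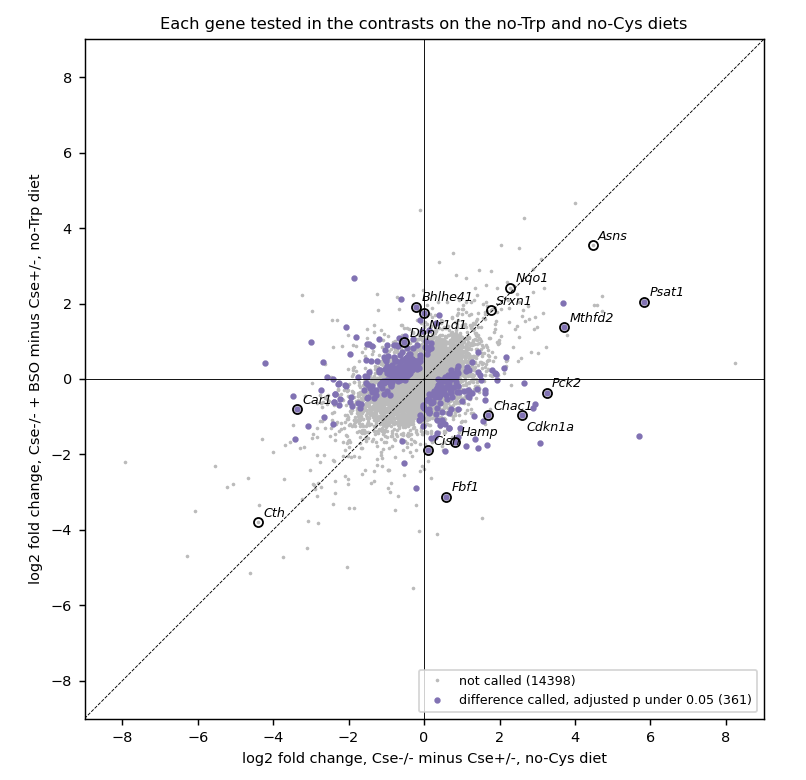
Log2 fold change of each of 14759 genes in Cse-/- minus Cse+/- on the no-Cys diet (horizontal) and in Cse-/- + BSO minus Cse+/- on the no-Trp diet (vertical), with the dashed line of equal change and the 361 genes whose difference was called in purple. Cth, Nqo1 and Srxn1 lie near the line, Psat1 and Pck2 below it and Nr1d1 above it.

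The difference was also called for Cox6a2, a muscle-type subunit of cytochrome oxidase (-7.21), Pck2, the mitochondrial PEP carboxykinase (-3.61), and Cdkn1a, which encodes p21 (-3.54). None of these 3 was called with BSO. Pck2 stood at 5.81, 7.50, 6.18 and 5.16 CPM against 6.89, 8.68 and 7.66 CPM (-0.36, adjusted p = 0.552), while it changed by 3.25 on the no-Cys diet (adjusted p = 4.3e-06). Cdkn1a changed by -0.95 with BSO (adjusted p = 0.193) and by 2.58 on the no-Cys diet (adjusted p = 0.00097). Fbf1, lower with BSO, gave 0.57 on the no-Cys diet (adjusted p = 0.38) and differed by -3.69 (adjusted p = 0.00928).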

How the data were processed

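Poly(A) RNA of mouse liver was sequenced, and the counts the authors deposited are whole reads per Ensembl gene, not normalized. Per the submitters' processing notes, reads were aligned to GRCm38 with HISAT2 2.1.0 and counted with HTSeq 0.11.0; the annotation release and strand setting are not given in the sources used here. Columns were tied to groups through the list of mice in the study's supplement, not to single samples, and 1 count column that the list does not place was not used. Pairs of libraries of the 2 groups compared differed beyond counting noise (chi-square per gene 12.4 to 49.7 over 9 pairs), so none was counted as a repeat. The members and gene lists were chosen with earlier results of these data known.

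Counts of all 20 libraries were fitted with edgeR 4.0.16 (limma 3.58.1, R 4.3.3) using TMM factors, filterByExpr (minimum count 10, minimum total 15), a mean per group and the quasi-likelihood test, two-sided. P-values were adjusted over 14759 genes by Benjamini-Hochberg, and a gene was called at an adjusted p under 0.05. CPM values were computed here with the TMM factors. A list score is the mean log2 CPM with a prior count of 2. The contrast between the steps was added after seeing the data. On simulated data with 197 changed genes of 14477 tested, the test recovered 163 (73.5% of 2-fold and 91.9% of 4-fold changes) with 10 false calls. DESeq2 1.42.0, other filters, scalings, thresholds, thinning and leaving out each liver were the alternatives.

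Genes to name were Cth, the 14 and 8 genes and 11 regulators the study names, the 8 called genes with the largest rise and the 8 with the largest fall at a mean of at least 1 CPM without overlap between livers, the 5 largest differences from the no-Cys comparison in each direction under the same conditions (overlap between the knockout groups), and per list the called gene with the largest change in each direction and up to 4 with the smallest p. Marker genes and others said to be so were chosen after their values were seen. Shared sequence was counted in 61-base words of transcripts. Python 3.11.15, numpy 2.4.6, pandas 2.3.3 and matplotlib 3.10.9 made tables and figures. Some results that the rule would name are not reported here.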

Additional observations from a re-analysis of the deposited data

Results flagged for a closer look

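In some genes and list scores 1 of the 4 BSO livers stood apart from the others, with a gap to its neighbour, given here as a share of the range of the 4, larger than chance gives in about 1 of 20 groups. The gap was computed for 124 named genes and 25 list scores, and 17 of these passed, of which liver av10 gave 9. It was the lowest for Nqo1 (0.858), Gclc (0.863), Gsr (0.834), Abcc2 (0.83) and Snhg11 (0.83), and for the scores of the 8 oxidative stress genes (0.868) and of the other NRF2-linked genes (0.865). It was the highest for G6pc (0.85) and for the interferon-stimulated score (0.901). Liver av12 was the highest for Cyp2b9 (0.878) and mt-Nd3 (0.837), and the lowest for Gars (0.856), the acute-phase score (0.908) and the p53 and growth arrest score (0.887). Liver av09 was the highest for Gtse1 (0.833), Slc5a6 (0.844) and the score of nuclear-encoded respiratory subunits (0.949).

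For 26 of the 124 named genes, the change with no-Trp + BSO differed from the knockout change on the no-Cys diet. The edgeR test of the difference between these comparisons called 361 genes in all (2.45%). Differences are given here in log2 units as the former change minus the latter. The naming rule itself took the largest called differences in each direction from this test. The place of those genes among the 26 was thus fixed in advance, and nothing is read from the count of 26. Of ISR and ATF4-linked genes, Psat1 differed by -3.78, Chac1 by -2.64, Mthfd2 by -2.33, Atf3 by -1.96, Slc3a2 by -1.08, Gars by -0.72 and Atf6 by -0.62. Of the clock, Bhlhe41 differed by 2.13, Nr1d1 by 1.76 and Dbp by 1.5. Of secreted and hormone-linked genes, Hamp differed by -2.48, Cish by -1.98 and Stat3 by -0.99. Of metabolic genes, Cox6a2 differed by -7.21, Pck2 by -3.61, Plin5 by -1.55 and Ethe1 by 0.80. Cdkn1a differed by -3.54, Fbf1 by -3.69, E030018B13Rik by -2.96, Smim22 by 3.03, Car1 by 2.57, Camk4 by 2.15, Nxpe2 by 1.97, Plk5 by 1.95 and Ifi27 by 0.67. Adjusted p for these ranged from 0.00124 to 0.047.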

How the results depend on the processing

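No named gene that was called changed direction under the alternatives run. Of 100 named genes called in the joint comparison, 99 were called by DESeq2 and 66 in all 7 fits that left out a liver. Joint calls numbered 623 at an adjusted p under 0.01 and 901 to 1679 with a liver left out. The BSO step gave 352 calls with DESeq2, 287 without a filter on low counts, 75 on its own groups alone, 28 at an adjusted p under 0.01 and 36 to 172 with a liver left out. The genotype step gave 722, 83 on its own groups, 237 after thinning to the shallowest library, 72 at an adjusted p under 0.01 and 109 to 421 with a liver left out. The no-Cys comparison gave 1860 at an adjusted p under 0.01. The difference from it gave 711 with DESeq2, 548 without the filter, 34 at an adjusted p under 0.01 and 117 to 925 with a liver left out, and the difference between the steps 5 to 61. List medians stayed within 1 SD in 332 of 350 cases. After thinning, those of other ATF4-linked genes, synthetases and coenzyme A genes were 0.16, 0.24 and -0.023, and with upper-quartile factors that of respiratory subunits was -0.20. With a liver left out, medians spanned -0.022 to 0.094 for bile acid genes, 0.27 to 0.40 for synthetases, -0.062 to 0.15 for glucose metabolism, -0.13 to 0.10 for glutathione, -0.070 to 0.089 for other ATF4-linked genes, -0.20 to -0.12 for respiratory subunits, -0.15 to -0.017 for p53 genes and -0.01 to 0.06 for coenzyme A genes. The cause of these shifts was not tested. No paired analysis was possible because the columns carry no replicate numbers. Genes under about 1 CPM rest on few counts in the shallower libraries, and groups of 3 and 4 mice limit the precision of all.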
